A study of Mus musculus with 2 samples.

Results

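The semaphorins, plexins and neuropilins are 31 guidance genes, and Foxf2 binding near them was read from a peak list of mouse palatal shelves. The members were taken from a fixed gene list: 20 semaphorin genes, which encode ligands, and 11 receptor genes, of which 9 encode plexins and 2 encode neuropilins. All 31 matched a protein-coding gene of the annotation, which holds 22372 such genes. A Foxf2 peak was counted for a gene if its centre lay inside the gene body, or if the closest start of a protein-coding transcript (TSS) was that gene's and lay within 100 kb. By this rule 34 of the 9165 peaks belonged to members.

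The peaks came from chromatin immunoprecipitation with anti-FLAG antibody (ChIP-seq) at stage E13.5. Embryos were Foxf2FLAG/FLAG, so both copies of the endogenous Foxf2 gene carried a 3xFLAG tag made by CRISPR/Cas9 editing, and 50 pairs of shelves were dissected. The groups were 1 anti-FLAG library of 26849463 tags and 1 input library, sequenced without antibody selection, of the same genotype, tissue and stage. Neither had a replicate, the labels do not name the mouse strain, and a ChIP from untagged tissue was not analysed here. A peak list does not measure RNA, so neither the cell types of the shelves nor the activity of any gene below could be checked from it.

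Semaphorins signal mainly through plexins, single-pass receptors whose cytoplasmic part acts on small GTPases and thereby on the cytoskeleton and adhesion. Class 3 semaphorins are secreted, and most of them need a neuropilin as a co-receptor that binds the ligand while the plexin signals. Sema3e is an exception, since it can bind Plxnd1 directly. Classes 4, 5 and 6 span the membrane, and Sema7a is held there by a lipid anchor. In the developing head these proteins are known for steering axons, vessels and migrating neural crest cells, the source of palatal mesenchyme. Foxf2, the tagged protein, is a forkhead transcription factor of that mesenchyme, and forkhead proteins bind DNA at sequences such as GTAAACA.

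Foxf2-FLAG peaks were present at 16 of the 31 members (51.6%), and the same rule gave a peak to 23.9% of all protein-coding genes. Of the ligands, 11 of 20 had a peak (55.0%), and of the receptors, 5 of 11 (45.5%). This order turned, to 40.0% of ligands and 45.5% of receptors, with a limit of 20 kb, with peaks inside the gene alone and with peaks of more than 20 ChIP tags. The ligands held 23 peaks and the receptors 11. At least 2 peaks belonged to 11 members, 8 ligands and 3 receptors, against 6.79% of all genes. A peak inside the gene body was found in 13 members (16.1% of all genes). No test was made between ligands and receptors or between members and other genes, because members are not replicates and the libraries had none.

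**Figure D1:**
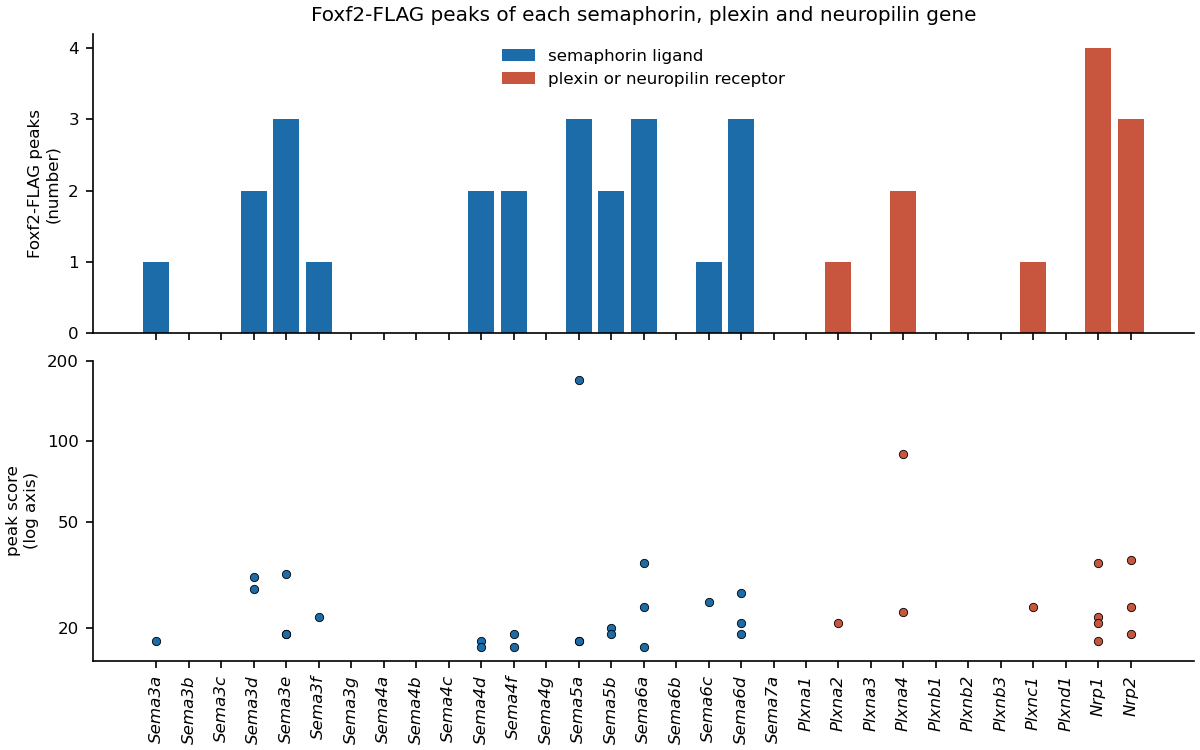
Number of Foxf2-FLAG peaks (upper panel) and score of each peak (lower panel, log axis) for the 31 members, ligands in blue and receptors in red. Nrp1 has the most peaks (4), and the Sema5a peak with a score of 169 and the Plxna4 peak with a score of 90 stand above the other 32, which score 17 to 36.

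Gene length moved with these counts. Members with a peak had a median body of 150 kb and members without one 22.8 kb. Of the 13 members with a body of at least 100 kb, 12 had a peak, where 59.3% of all genes of that length had one. Sema3c, a secreted ligand with a body of 156 kb, was the long member without. Of the 18 shorter members, 4 had a peak (22.2%), near the 19.6% of all genes under 100 kb. All 5 long receptor genes (Plxna2, Plxna4, Plxnc1, Nrp1 and Nrp2) had a peak and none of the 6 short ones did. Among ligands, 7 of 8 long and 4 of 12 short genes had one. The length over which a peak would count for a gene was summed as its territory. Members had 6.17 peaks per Mb of territory (95% Poisson interval 4.28 to 8.63), and all protein-coding genes 4.13. Ligands had 6.28 per Mb (3.98 to 9.42). Receptors had 5.97 (2.98 to 10.7), which joins 2.71 for the 9 plexins and 19 for the 2 neuropilins. The intervals of ligands and receptors overlapped. This order depended on the rule: under 6 of 10 alternative settings receptors had more peaks per Mb than ligands, for example 6.37 against 5.7 with a limit of 50 kb and 8.17 against 5.99 with peaks inside the gene alone. The part of length in the members' count was not tested beyond these values.

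**Figure D2:**
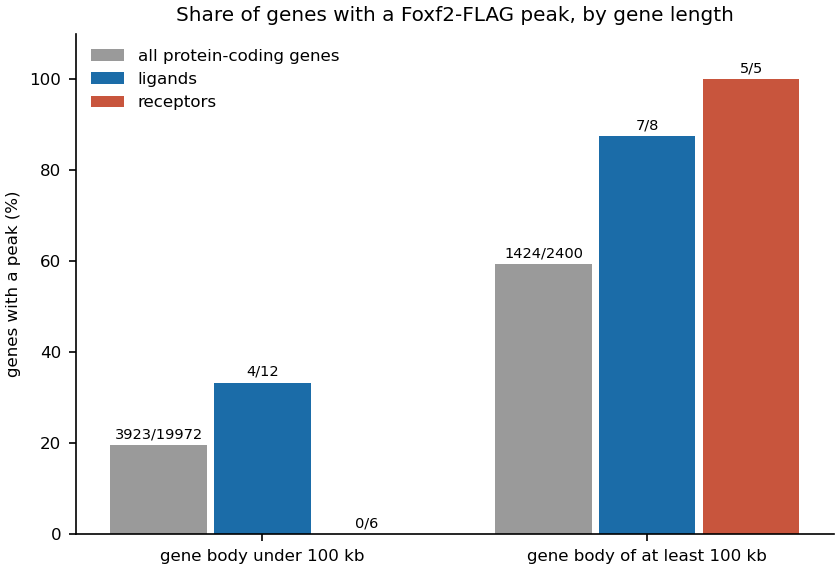
Percentage of genes with a Foxf2-FLAG peak among all protein-coding genes (grey), semaphorin ligands (blue) and plexin and neuropilin receptors (red), for gene bodies under and of at least 100 kb; the numbers are genes with a peak over genes in the class. Of the long members 7 of 8 ligands and 5 of 5 receptors have a peak, and of the short ones 4 of 12 and 0 of 6.

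Among the ligands, the outstanding peak lay in Sema5a. Sema5a is a transmembrane semaphorin with thrombospondin repeats, and its gene (chromosome 15, mm9 32174568-32626096, plus strand) spans 452 kb. The peak at chr15:32236557-32237313 was in the first intron, 62.4 kb from the 5′ end of the gene and 40.1 kb upstream of an alternative start. The ChIP library had 177 tags there and the input library 8. After scaling for depth this was a 15.85-fold excess (95% interval 7.87 to 37.3, counting error only). Its score, the peak caller's own value as the authors deposited it, was 169, rank 11 of the 9165 peaks, and its deposited p-value against input was 9.29e-102. The median of all peaks was 30 ChIP tags and a score of 25. Sema5a had 2 further peaks in the same intron, all 3 within 17.7 kb, but these held only 17 ChIP tags against 1 input tag each and scored 18. The strong peak, 756 bp wide, held 3 forkhead sequences within 98 bp, and the stretch that holds them is shown for that reason. It is chr15:32236806-32236943 of the plus strand in mm9, with each forkhead sequence in capitals (TGTTTAT is ATAAACA read from the other strand).
Sema5a: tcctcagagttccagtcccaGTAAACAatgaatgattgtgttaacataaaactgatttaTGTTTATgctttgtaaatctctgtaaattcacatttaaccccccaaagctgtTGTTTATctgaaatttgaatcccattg

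Sema5b, the other class 5 ligand, had 2 weak peaks. One lay 56 bp upstream of an annotated start (chr16:35541351-35541851) and one in an intron (chr16:35630717-35631217), and each held 19 ChIP tags against 1 input tag, 13.61-fold (2.16 to 565), with scores of 19 and 20. The class 5 pair therefore held both the strongest member peak and some of the weakest.

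The secreted class 3 ligands had peaks far from their starts. Of 7 genes, Sema3a, Sema3d, Sema3e and Sema3f had a peak, 7 peaks in all with scores of 18 to 32. None of them was within 1 kb of a TSS, where 25.7% of all peaks were. The same held for the 7 peaks of class 6 and the 7 of the neuropilins, so it was not particular to class 3. Sema3e, the ligand that can bind Plxnd1 directly, had 3. Its best peak (chr5:14142748-14143376, intron 1) held 31 ChIP tags and no input tag, with a score of 32. The deposited fold of 44.41 uses 0.5 in place of 0 input tags. With 3 input tags, the limit that a count of 0 allows, the ratio would be 7.40-fold, and the exact lower limit, which includes the counting error of the ChIP tags, was 5.67-fold. A second Sema3e peak, 42.2 kb upstream of the start, held 47 tags against 2 (score 19), and one in intron 6 held 19 against 1 (score 19).

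Sema3d, known from neural crest and vessel development of the heart, had a pair of peaks 2.63 kb apart, about 70 kb upstream (70.0 and 72.6 kb). The nearer one held 35 ChIP tags, 12.53-fold over input (3.22 to 108), and scored 31. The other held 31, 11.1-fold over input (2.83 to 95.7), and scored 28. Each had 2 input tags. The single Sema3a peak was intronic with 17 tags against 1 (score 18). Sema3f, the repellent ligand of Nrp2, had 1 peak 24.0 kb upstream with 21 tags against 1 (score 22). Sema3a lay 41 kb from a larger peak of 152 tags (score 47) that did not count for it, since the start of Gm10108 was nearer, at 37.2 kb.

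Of the 6 transmembrane class 4 ligands, Sema4d and Sema4f had peaks, all with scores near the lower limit of the list. Sema4d is a ligand of B-type plexins. Its peak at the promoter (chr13:51888654-51889154), 138 bp downstream of a start, held 16 ChIP tags and no input tag, with a deposited fold of 22.92 and an exact lower limit of 2.76-fold, and scored 17. Its intronic peak held 18 tags against 1 and scored 18. A score of 17 was the lowest in the whole list. Sema4f had 2 peaks beyond its 3′ end, 40.9 and 81.4 kb from its start, with 32 tags against 2 and 17 against 1 (scores 17 and 19). Sema4a, Sema4b, Sema4c and Sema4g had none.

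The class 6 ligands, transmembrane partners of A-type plexins, had peaks at 3 of 4 genes. Sema6a (chromosome 18, 47395252-47528524, minus strand) had 3 within 19.9 kb near its 3′ end, with 55, 22 and 17 ChIP tags against 3, 1 and 1 input tags and scores of 35, 24 and 17. The first, at chr18:47414161-47414661, had a 13.13-fold excess (4.26 to 65.6). Sema6d, the longest member at 577.8 kb, also had 3, spread over 539 kb. They held 65, 30 and 33 ChIP tags against 4, 2 and 2 input tags, and scored 27, 21 and 19. The best one (chr2:124028844-124029344) lay in an intron 113 kb from the nearest start, with an 11.64-fold excess (4.33 to 44.0). The short gene Sema6c, of 13.6 kb, had 1 peak over a 3′ exon (chr3:94977244-94977943) with 29 tags against 1, 20.77-fold (3.44 to 848), and a score of 25. Sema6b had none, nor did Sema7a, the anchored ligand that binds Plxnc1 and integrins.

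Both neuropilin genes had several peaks. As a class of only 2 genes they had the most peaks per Mb, with 7 in 0.368 Mb of territory (19 per Mb, 95% Poisson interval 7.65 to 39.2). The interval of every other class overlapped this one, for example that of class 4 at 10.1 per Mb (2.75 to 25.9), and the difference was not tested. Nrp1, the co-receptor of Sema3a that also binds VEGF, had 4 peaks inside its body of 146 kb. The one nearest to its start, at chr8:130883661-130884394 in intron 1, was 1.054 kb away and so just outside the 1 kb used for promoters. With 57 ChIP tags and 3 input tags it was 13.61-fold over input (4.43 to 67.9) and scored 35. The other 3, in introns 6, 12 and 10, held 29, 19 and 18 ChIP tags against 1 input tag each and scored 22, 21 and 18. Nrp2, the co-receptor of Sema3f, had 3 peaks. Its best one (chr1:62816463-62817370, intron 11) held 73 ChIP tags against 5, 10.46-fold (4.28 to 33.2), with a score of 36. A peak 71.0 kb upstream, inside the neighbouring gene Pard3b, held 29 tags and no input tag (score 24, exact lower limit 5.28-fold), and a peak 3.07 kb from the start held 21 against 1 (score 19).

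Of the 9 plexin genes only Plxna2, Plxna4 and Plxnc1 had a peak, and each of the 3 had one at its start. Plxna4, a receptor that signals for Sema3a together with Nrp1, held the second highest member peak, in intron 4 (chr6:32230539-32231039), 307 kb from its own start. This peak had 88 ChIP tags against 6, 10.51-fold (4.64 to 29.4), a score of 90 (rank 244) and a deposited p-value of 1.46e-41. The nearest annotated start, of 1700012A03Rik, was 231 kb away, so the peak counted for Plxna4 only because it lay inside the gene. A second Plxna4 peak covered the promoter (chr6:32537336-32538579, 235 bp from the start), with 49 ChIP tags against 3, 11.7-fold (3.78 to 58.7), and a score of 23. At 1243 bp it was the widest member peak. Plxnc1, the receptor of Sema7a, had 1 peak 635 bp from its start (chr10:94406191-94406964) with 35 tags against 2, 12.53-fold (3.22 to 108), and a score of 24. Plxna2, a receptor for class 6 ligands, had 1 at 810 bp (chr1:196446583-196447083) with 21 tags against 1, 15.04-fold (2.42 to 622), and a score of 21.

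The plexins without a peak were Plxna1, Plxna3, all 3 B-type genes Plxnb1, Plxnb2 and Plxnb3, and Plxnd1. Plxnd1, the direct receptor of Sema3e in vessels, was 120 kb from the nearest peak. Over the 6 plexin genes without a peak, the nearest peak to any of their starts was 56.9 kb (Plxnb1) to 504 kb (Plxna3) away. Plxna3 and Plxnb3 are on the X chromosome. Among the 9 ligands without a peak the distance ran from 11.7 kb for Sema3g, where the peak lay at the start of Nisch, to 174 kb for Sema7a. Sema3b was 35.6 kb from a peak at the start of Hyal2, Sema4c 45.7 kb from a peak of 113 tags at the start of Cnnm3, Sema6b 54.8 kb from a peak at Hdgfrp2 with a score of 68, and Sema3c 158 kb.

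**Figure D3:**
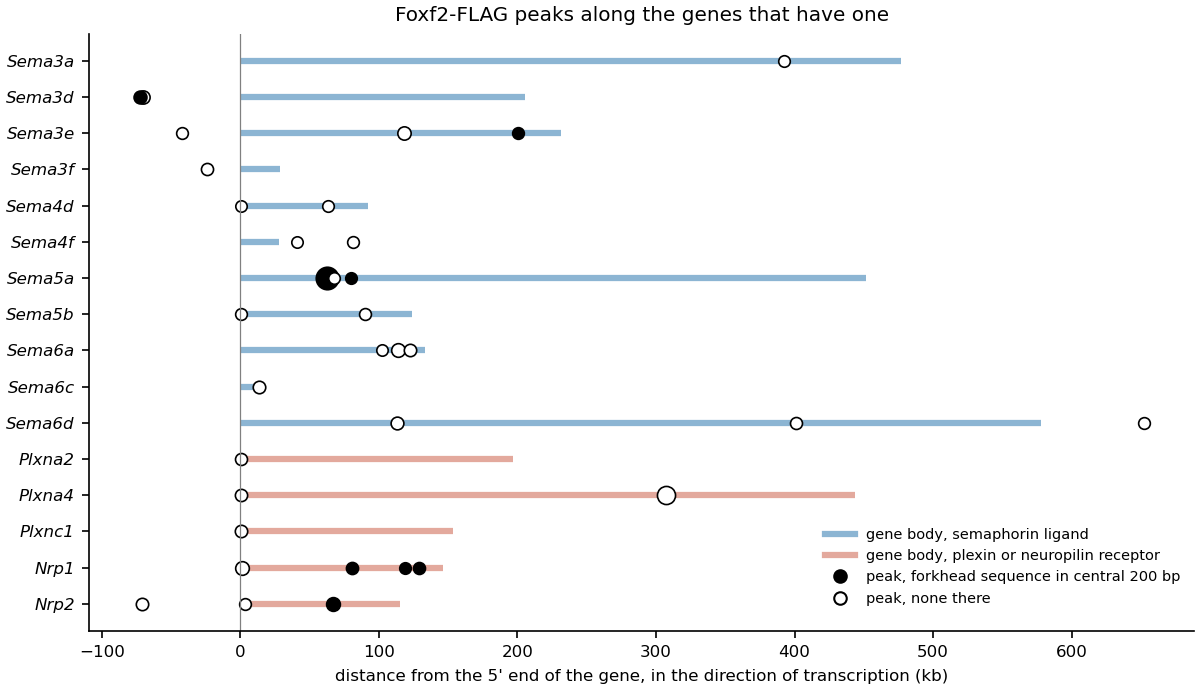
Foxf2-FLAG peaks along the 16 members that have one, drawn from the 5′ end of each gene in the direction of transcription (kb); bars are gene bodies, circle size grows with the peak score, and filled circles hold a forkhead sequence in the central 200 bp. Peaks at the 5′ end are open circles, and 7 of the 8 filled ones lie in introns.

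In position, the member peaks were mostly distal and intronic. Inside the gene lay 26 of the 34, 20 of them in introns (7 in the first), 5 over untranslated parts of exons and 1 in a coding exon. Upstream lay 5 and downstream 3. Receptor peaks were inside the gene in 10 of 11 cases and ligand peaks in 16 of 23. The rule counts a peak inside a member at any distance, so these inside and intronic shares are partly set by it. They were not computed for all peaks. Within 1 kb of a TSS were 5 member peaks (14.7%), 2 at ligands (Sema4d and Sema5b) and 3 at receptors (Plxna2, Plxna4 and Plxnc1), where 25.7% of all peaks were that close. In terms of genes, 5 of 31 members had a promoter peak, against 10.3% of all genes. Another 4 peaks lay 1 to 10 kb from the nearest start, 17 lay 10 to 100 kb away and 8 farther, the last counting only because they were inside a member.

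The 100 kb limit left out 14 peaks outside the gene whose nearest start belonged to 6 of the members. The farthest peak kept for its distance was that of Sema6d at 88.2 kb (33 tags, score 19), and the first left out were at 104 kb from Sema6a (52 tags, score 55) and 117 kb from Sema5a (45 tags, score 29). Several of those left out were larger than most peaks kept. A peak 127 kb upstream of Sema3d held 126 ChIP tags (score 41), one 127 kb from Plxna2 held 102 (score 22), and one 170 kb from Nrp2 held 113 (score 66). Nrp2 alone had 4 such peaks.

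The members' peaks had a median of 29 ChIP tags, against 30 for all peaks, and a median fold of 13.0 against 12.9. Their scores were lower, with a median of 21 against 25. A score of at most 20 was given to 44.1% of member peaks and 34.6% of all peaks, and a score of at least 25 to 10 of the 34 and to 4692 of the 9165. These differences were not tested. At most 20 ChIP tags were counted in 12 of the 34 (35.3%, against 29% of all peaks), and 17 had a single input tag, so that their intervals span more than 2 orders of magnitude. Ligand peaks had a median score of 19 (range 17 to 169) and receptor peaks 23 (18 to 90), and the ranges overlapped. Of the 23 ligand peaks 10 held at most 20 tags, and of the 11 receptor peaks 2 did. With only peaks of more than 20 tags, 41.9% of members and 18.4% of all genes had a peak.

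**Figure D4:**
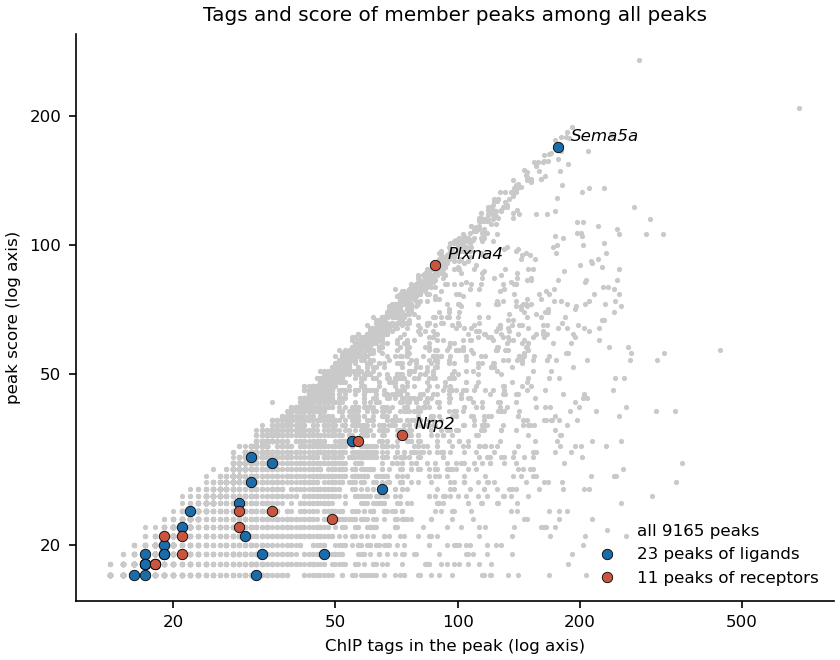
ChIP tags (x axis, log) and peak score (y axis, log) of all 9165 peaks in grey, with the 23 ligand peaks in blue and the 11 receptor peaks in red. Sema5a (177 tags, score 169) and Plxna4 (88 tags, score 90) lie on the upper edge, and the other member peaks score 36 or less.

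Forkhead sequences were searched on both strands as the letters GTAAACA and as the forms GTAAATA with T for C, then ATAAACA with A for G, and lastly ATAAATA with both changes, and matches could share bases. In the central 200 bp, 8 of the 34 member peaks held at least 1 (23.5%, Wilson 95% interval 12.4 to 40.0), and 40.8% of all peaks did. The 8 were 3 of the Nrp1 peaks, 2 of Sema5a, and 1 each of Nrp2, Sema3d and Sema3e. Receptors had 4 of 11 and ligands 4 of 23, all beyond 1 kb from a TSS. Among peaks beyond 1 kb, the share was 27.6% (14.7 to 45.7) of 29 member peaks and 51.5% of all such peaks. With the whole peak searched, 22 of 34 members' peaks (64.7%) and 64.3% of all peaks held a sequence. Of those 22, the central 200 bp held it in 8 (36.4%, 19.7 to 57.0), while over all peaks it did in 63.5% of 5890. GTAAACA itself was present in the central window of 1 member peak, in Nrp1 (2.94%, against 15.3% of all peaks), and somewhere in 8 (23.5%, against 28.4%). The difference in the central window was not tested.

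The sequences below show where the sites lay in the strongest receptor peaks and in the best Sema3e and Sema6d peaks. Each is 60 bases of mm9 around the forkhead sequence nearest to the peak's centre, with forkhead sequences in capitals and the strand chosen so that this one reads forward. The Nrp1 intron 6 peak is added, after its values were seen, because its GTAAACA was 8 bp from the centre and had an ATAAACA on the other strand 12 bp farther on. In the Plxna4 peak the site was 149 bp from the centre, in the first Nrp1 peak 157 bp, in Nrp2 74 bp, in Sema3e 269 bp and in Sema6d 162 bp. The windows are chr6:32230611-32230670 (plus) for Plxna4, chr1:62816813-62816872 (plus) for Nrp2 and chr8:130884155-130884214 (plus) for the first Nrp1 peak. They are chr8:130963309-130963368 (plus) for Nrp1 intron 6, chr5:14143302-14143361 (minus) for Sema3e and chr2:124028903-124028962 (minus) for Sema6d.
Plxna4 intron 4: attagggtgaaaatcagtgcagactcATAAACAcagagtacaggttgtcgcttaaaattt
Nrp2 intron 11: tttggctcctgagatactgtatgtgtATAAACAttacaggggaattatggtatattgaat
Nrp1 intron 1: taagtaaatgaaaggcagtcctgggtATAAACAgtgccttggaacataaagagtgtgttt
Nrp1 intron 6: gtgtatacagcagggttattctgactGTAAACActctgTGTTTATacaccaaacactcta
Sema3e intron 1: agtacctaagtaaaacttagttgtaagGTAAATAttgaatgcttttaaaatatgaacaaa
Sema6d intron: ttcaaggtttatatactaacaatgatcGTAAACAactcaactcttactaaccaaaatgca

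The 5 promoter peaks of the family were richer in GC than most of its other peaks. None of the 5 held a forkhead sequence anywhere in the peak, and over all peaks within 1 kb of a TSS 24.1% did. With only 5 promoter peaks at members, this difference was not tested. Their central 200 bp had GC contents of 67.0% (Plxna2 and Plxnc1), 75.0% (Sema5b), 77.0% (Sema4d) and 80.0% (Plxna4), with 17 to 32 CG dinucleotides each. The median over all peaks within 1 kb was 71.0%, and that of the 29 other member peaks was 42.5%. The groups were not cleanly apart. Among the others, the Sema6c peak, 9.3 kb from a start, had 69.5% and the Nrp2 peak at 3.07 kb had 65.5%. Shown here as examples are 60 bases at the centre of the Plxna2 peak (chr1:196446803-196446862, plus strand) and of the Plxnc1 peak (chr10:94406547-94406606, plus strand), with no part in capitals because neither holds a forkhead sequence.
Plxna2 promoter: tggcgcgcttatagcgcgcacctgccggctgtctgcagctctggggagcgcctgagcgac
Plxnc1 promoter: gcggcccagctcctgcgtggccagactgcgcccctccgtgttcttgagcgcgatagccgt

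**Figure D5:**
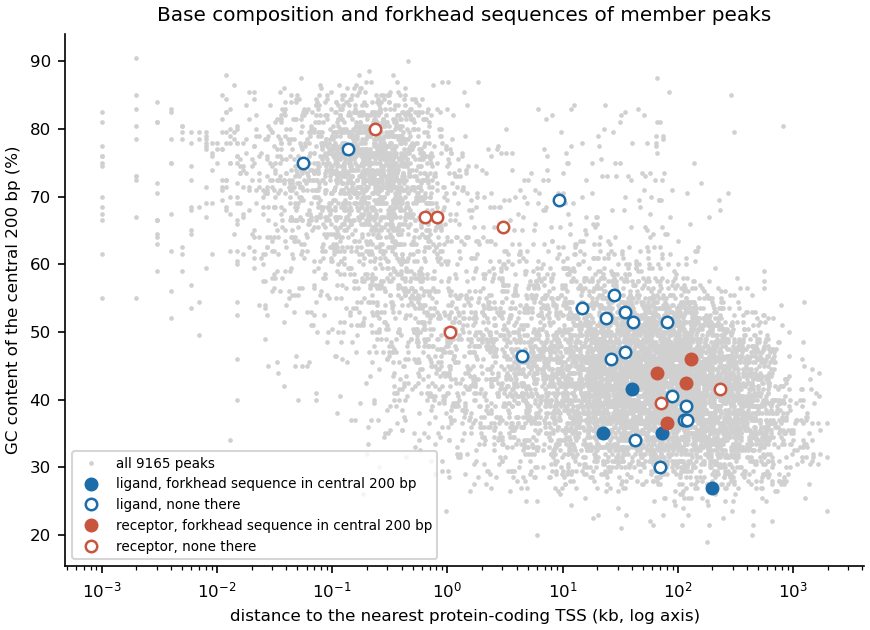
GC content of the central 200 bp (y axis, %) against distance to the nearest protein-coding TSS (x axis, kb, log) for all 9165 peaks (grey; a distance of 0 is drawn at 1 bp), ligand peaks (blue) and receptor peaks (red), filled where the central 200 bp holds a forkhead sequence. The 5 member peaks within 1 kb have a GC content of 67.0% or more and none is filled.

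Other sequences were counted in the same central windows. The E-box CATCTG was present in 9 member peaks (26.5%, against 16.1% of all peaks). Of these, 7 were at ligands, which held 23 of the 34 member peaks. The SOX sequences AACAAAG and AACAATG were present in 3 (8.82% against 10.7%), and the RUNX sequence TGTGGTT followed by A or T in 2, at Sema3d and Sema3f (5.88% against 3.25%). The TEAD sequence GGAATG was present in 2 (5.88% against 9.97%) and the AP-1 sequence TGANTCA in 2 (5.88% against 4.71%). The differences from all peaks were not tested. Overlaps between these motifs and the forkhead sequences were not removed, and a match does not show that the factor binds.

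Other genes of the pathway were counted by the same rule. Of 40 co-receptors and effectors, 14 had a peak (35.0%, against the 23.9% of all genes). Their median gene body was 48.8 kb, against 15.4 kb for all genes. Per Mb of territory they had 4.72 peaks (3.02 to 7.02), an interval that holds the 4.13 of all genes. The part of length in this count was not tested. Among 12 co-receptors and alternative receptors 3 did, namely Met (2 peaks, best score 49), a kinase that associates with B-type plexins, Itga9 (score 42) and Itga1 (score 17). Kdr, L1cam, Nrcam and Erbb2 were among those without. Of 28 cytoplasmic effectors 11 had a peak (39.3%), 20 peaks in all at 6.96 per Mb. Rnd3 had 3 with a best score of 60, the highest of the effectors, and Fyn had 3 with a best score of 33. Farp1, an exchange factor that binds A-type plexins, had 3 with a best score of 47. Arhgef12, an exchange factor that binds B-type plexins, had 4 with a best score of 38, although no B-type plexin had a peak. Promoter peaks were at 5 effectors, namely Rac1 (score 42), Cfl1 (score 35), Limk1 (score 20), Dpysl3 and Farp1. Among the collapsin response mediator genes, Dpysl3 (score 28) and Dpysl4 (score 17) had 1 each, and Dpysl2, Dpysl5 and Crmp1 had none.

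Of the other families of guidance ligands and receptors, 27 of 41 genes had a peak (65.9%, against 23.9% of all genes), with 59 peaks at 5.78 per Mb of territory (4.4 to 7.46) beside the 6.17 of the members. Netrin, slit and repulsive guidance molecule ligands had one at 8 of 9 genes and their receptors at 8 of 10, ephrins at 5 of 8 and Eph receptors at 6 of 14. Their median gene bodies were 107, 266, 9.24 and 92.4 kb in the same order, and the part of length in these counts was not tested. Slit3 had 9 peaks (best score 63) and Epha3 had 7 (best score 162), more than any semaphorin, plexin or neuropilin gene. The central forkhead share of these 59 peaks was 45.8% (33.7 to 58.3). That interval overlapped the one of the 34 member peaks, and the difference was not tested.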

How the data were processed

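One anti-FLAG ChIP library and one input library of E13.5 palatal shelves were compared through the deposited peak list. Reads were aligned to mm9 with Bowtie 1.0.0 and SAMtools 0.1.19, per the submitters' processing notes. Per the file headers, the authors called peaks with HOMER findPeaks (histone style, version not given in the sources used here) with the input as control, on 1 ChIP library. Peaks of 500 bp were stitched into wider regions, no position kept more than 1 tag, and a 10-fold excess over input and over the surrounding 10000 bp was required. Every fold below 10 is therefore absent by construction.

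The deposited signal was ChIP tags scaled to a fixed depth. Multiplied back by the header's total it gave whole tags within 0.134 (tolerance 0.15), which sum to 397999. The deposited fold is a ratio of scaled ChIP tags to input tags and put the input depth at about 19230000. The deposited score and p-value are the authors' and served only to describe and rank peaks.

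Computed here, with Python 3.11.15, pandas 2.3.3, scipy 1.17.1 and pysam 0.24.0: peak centres were matched to GENCODE vM1 protein-coding genes on NCBIM37, the assembly of mm9 (all peaks lay within its chromosome lengths). Every start of a coding transcript counted as a TSS. A peak inside one gene and nearest to another counted for both. Territory was the gene body plus all positions nearest to its TSS within 100 kb. Introns were numbered in the coding transcript with the widest span. Fold intervals were exact and conditional on the tags, and intervals of shares, where printed, are Wilson intervals. Intervals of peaks per Mb are Poisson intervals that take peaks as independent. All of these intervals cover counting error only, since there was 1 library of each kind and no replicate. The assignment was checked on test data with known answers.

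Named genes followed a rule. Tags, score and fold with its interval or lower limit are given for the best peak of the 10 members with the highest scores. The same values are given for every promoter peak, and a statement on each other member. Rank and p-value are printed only for the best peaks of Sema5a and Plxna4. Members, lists, motifs and rules were chosen with earlier results of these data known. Alternatives changed the distance limit, the gene rule, the TSS set, the peak filter and the motif search. Sequences over untranslated exons and on chromosome 18 were not printed.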

Additional observations from a re-analysis of the deposited data

How the results depend on the processing

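With 1 library of each kind, no replicate could be left out, and peaks of 16 to 19 ChIP tags rest on few reads. Of 113 recomputed values, 82 stayed within 1.5 times the reported count or, for densities and the median score, within its 95% interval. That range still allows moves such as 34 to 48 member peaks without a distance limit. The total also includes settings that hardly touch a value. Counting any overlap with the gene changed none of the results, and most values moved under the score and 15-fold filters. Ligands had fewer peaks per Mb than receptors under 6 of 10 settings (5.7 against 6.37 at 50 kb, 5.29 against 7.19 at 20 kb, 5.99 against 8.17 inside the gene, 5.96 against 6.2 without a limit, and the 15-fold and 20-tag values below), and a smaller share with a peak under 3. Without a distance limit, receptor peaks numbered 19 and member peaks with a forkhead sequence 16. With assigned peaks only, 5 had one. Keeping peaks with a score of at least 25 left 9 members with a peak (6 ligands, 3 receptors), 10 member peaks (7 ligand, 3 receptor), 1.91 peaks per Mb for ligands and 1.63 for receptors, 0 promoter peaks, 3 with a forkhead sequence and a median score of 33.5. Peaks of at least 15-fold left 9 members (6 ligands, 3 receptors), 11 peaks (7 ligand, 4 receptor), 1.91 and 2.17 per Mb, 2 promoter peaks and 2 with a forkhead sequence. Of all genes, 13.9% and 10.3% then had a peak, and 29% of members under both. Peaks of more than 20 tags left 22 (13 at ligands, 3.55 per Mb against 4.89 for receptors), 3 at promoters and 4 with a forkhead sequence. These filters leave fewer peaks to count. A forkhead sequence was in 22 member peaks when the whole peak was searched, and GTAAACA alone was in 1. The share of members' peaks with a forkhead sequence was below that of all peaks under each setting, with the whole-peak search as the exception (64.7% against 64.3%).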
